A study of Mus musculus with 10 samples.

Results

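The 42 genes described here encode proteins that license replication origins, run the replication fork, rebuild chromatin behind it and supply deoxynucleotides. They were chosen by symbol from a list of known replication and nucleotide supply genes, and all 42 were found among the 55866 genes of the deposited count table. The 10 bulk libraries hold polyadenylated RNA of iKCs, a mouse cell line, whose transduced cells had been sorted for viability and for the fluorescent marker mOrange. The vectors were meant either to raise or to sequester miR-342-3p, a microRNA, and the study asked which genes differed between cells with these vectors and cells with control vectors. The level of the mature microRNA was not measured in these libraries.

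The overexpression group (n = 3) carried a miR-342-3p vector, and its control, the mutated control group (n = 2), carried a mutated miR-342-3p vector. The sponge group (n = 3) carried a miR-342-3p sponge, a transcript with binding sites meant to sequester the microRNA. Its control, the scramble group (n = 2), carried a scramble control sponge. All 4 groups were the same line, sorted in the same way, and all expressed mOrange, so no untransduced cells stood beside them. The titles call the libraries biological replicates, but the sources used here do not give how the cultures were kept apart, so the p-values reflect library-to-library spread, which may be technical.

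A replication origin is licensed when the origin recognition complex, CDC6 and CDT1 load the ring-shaped MCM helicase, and it fires when CDC45 and the GINS complex join that ring. DNA polymerases then copy the strands with the sliding clamp PCNA, while ribonucleotide reductase and thymidylate synthase make the deoxynucleotides they use. Many of these genes are transcribed late in G1 and in S phase under E2F transcription factors, and Kupffer cells, the resident macrophages of the liver, divide rarely in the undisturbed organ but can renew themselves by local division.

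Mature miR-342-3p is shown because its seed, bases 2 to 8 in capitals, defines the sites that could be looked for in the members (RefSeq, GRCm38.p6, chr12:108658680-108658702, plus strand).
miR-342-3p: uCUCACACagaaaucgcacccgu
A match to that seed (GTGTGAG) lay in the longest annotated 3′ UTR of 2 of the 42 members (4.76%), Rfc5 and Rpa2, and none of the 42 held the longer match GTGTGAGA. Among 11933 tested genes with an annotated 3′ UTR (GENCODE vM21), 16.3% held the shorter match and 5.09% the longer. The median 3′ UTR was 528.5 bases in the members and 1320 bases in those genes. Both sites are shown with their surroundings and with the match in capitals, from base 1413 of 1707 in Rfc5 and base 652 of 878 in Rpa2.
Rfc5: aggcagattttGTGTGAGgcgtcttgaata
Rpa2: gcttacttactGTGTGAGtgtggaagtcag

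Promoters were compared because the members are known for E2F control. Of the 42 members, 34 had a promoter in the RefSeq table (GRCm38.p6), taken as 250 bases before to 50 bases after the first listed start. The letters TTTCCCGC, TTTCGCGC, TTTGCCGC or TTTGGCGC, an E2F motif searched on both strands, occurred in 11 of the 34 (32.4%), against 4.18% of 10514 tested genes and 1 of 23 mitotic genes (4.35%). The 11 were Orc1, Cdc6, Cdt1, Mcm3, Mcm5, Mcm6, Mcm7, Gins3, Pola1, Pold1 and Rfc3. CCAAT, the letters bound by NF-Y, occurred on either strand in 21 of the 34 (61.8%), against 39.1% of tested genes. TTTGAA, the CHR element known from mitotic genes, occurred in 5 of the 34 (14.7%), against 12.2% of tested genes and 16 of the 23 mitotic genes (69.6%).

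The promoters of Mcm3 and Mcm6 are shown as members rich in these letters, and those of Rrm2 and Ssrp1 because these 2 genes carry the differences described further on. Capitals mark every E2F, CCAAT and CHR match, and in Mcm6 the first 2 E2F matches overlap. The intervals are chr1:20820263-20820562 (minus strand) for Mcm3, chr1:128359656-128359955 (minus strand) for Mcm6, chr12:24708004-24708303 (plus strand) for Rrm2 and chr2:85036870-85037169 (plus strand) for Ssrp1.
Mcm3: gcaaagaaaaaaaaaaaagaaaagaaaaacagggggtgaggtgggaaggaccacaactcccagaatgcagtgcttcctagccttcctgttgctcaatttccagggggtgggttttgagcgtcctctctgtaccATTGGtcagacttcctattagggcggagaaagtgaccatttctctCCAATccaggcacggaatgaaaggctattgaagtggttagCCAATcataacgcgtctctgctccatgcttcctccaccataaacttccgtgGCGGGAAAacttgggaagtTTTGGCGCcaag
Mcm6: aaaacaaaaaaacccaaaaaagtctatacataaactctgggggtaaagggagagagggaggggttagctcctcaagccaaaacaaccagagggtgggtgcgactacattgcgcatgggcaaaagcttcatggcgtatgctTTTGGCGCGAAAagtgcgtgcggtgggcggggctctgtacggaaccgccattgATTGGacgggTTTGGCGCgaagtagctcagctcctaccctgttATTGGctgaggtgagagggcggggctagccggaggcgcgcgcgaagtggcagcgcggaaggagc
Rrm2: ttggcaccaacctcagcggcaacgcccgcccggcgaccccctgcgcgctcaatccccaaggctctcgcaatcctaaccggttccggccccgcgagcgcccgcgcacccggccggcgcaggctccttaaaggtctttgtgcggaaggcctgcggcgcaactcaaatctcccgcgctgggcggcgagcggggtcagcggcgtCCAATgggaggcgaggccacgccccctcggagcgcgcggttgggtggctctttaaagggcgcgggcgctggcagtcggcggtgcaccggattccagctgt
Ssrp1: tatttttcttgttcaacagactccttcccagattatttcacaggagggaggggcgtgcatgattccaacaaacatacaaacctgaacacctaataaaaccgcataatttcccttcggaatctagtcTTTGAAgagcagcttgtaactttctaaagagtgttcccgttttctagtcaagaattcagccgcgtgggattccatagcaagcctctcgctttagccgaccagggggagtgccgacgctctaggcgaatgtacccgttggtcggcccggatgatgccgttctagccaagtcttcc
Mcm3 held 2 E2F and 3 CCAAT matches, Mcm6 held 3 E2F and 2 CCAAT matches, Rrm2 held 1 CCAAT match and Ssrp1 held 1 CHR match. Ssrp1 and Lig1 each have another listed start whose promoter holds 1 E2F match; with every listed start counted, 13 of the 34 members (38.2%) held one, against 4.68% of tested genes.

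Total counts ran between 25712732 and 59259988 per library. Levels are CPM, counts scaled to library size with TMM factors, and levels compared between genes are FPKM, the same values per kilobase of the deposited gene length. Reads of the Mir342 hairpin stood at 8.22, 11.3 and 9.41 CPM in overexpression libraries and at 2.86 and 3.22 CPM in mutated control libraries. They were at 0 in all 5 sponge and scramble libraries, which allows up to 0.0892 CPM in the shallowest of these, counting error only. Of 16 macrophage and Kupffer cell markers 13 were tested, with summed levels between 5729 and 6841 CPM over all libraries, but the Kupffer markers Clec4f and Timd4 were at 0 in every library and Vsig4 did not exceed 0.0934 CPM. The 6 endothelial markers, of which 4 were tested, summed to between 21.3 and 31.1 CPM, and summed levels did not exceed 0.0788 CPM for 6 hepatocyte markers, 0.862 CPM for 6 stellate cell and fibroblast markers and 0.371 CPM for 10 lymphocyte, neutrophil and erythroid markers. Overexpression replicate 1 and sponge replicate 3 stood apart from the other libraries of their groups in a way that followed gene length, and counts of members called are also given without both, with the values of some members.

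All 42 genes were expressed and all 42 were tested. Averaged over the 10 libraries, Pcna, the sliding clamp, stood highest at 182 FPKM, followed by the helicase subunits Mcm6 at 133 FPKM, Mcm3 at 104 FPKM and Mcm5 at 92.8 FPKM. Mcm7 at 76.2 FPKM, Ssrp1 at 75.8 FPKM and Mcm4 at 75.5 FPKM lay closer together than their spread. Lig1 at 66.6 FPKM, Mcm2 at 55.6 FPKM, Cdt1 at 52.3 FPKM and Rpa1 at 50.8 FPKM completed the members above 50 FPKM.

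The lowest members were Orc1 at 6.12 FPKM, Fen1 at 7.38 FPKM, Gins3 at 7.75 FPKM and Prim2 at 9.64 FPKM. Subunits of 1 complex differed widely. Gins4 stood at 47.6 FPKM and Gins3 at 7.75 FPKM, and the large reductase subunit Rrm1 stood at 38.9 FPKM while the small subunit Rrm2 stood at 22.9 FPKM. The gene length behind FPKM counts all annotated exon bases, 11012 for Rrm1 and 2771 for Rrm2, so differences between genes depend on the annotation. Counting used no strand, and exons of other genes cover 84.2% of Fen1, 67.3% of Gins2, 52.5% of Chaf1a and 20.8% of Pcna exon bases, so these levels are uncertain and the part of the overlap in them was not tested.

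**Figure D1:**
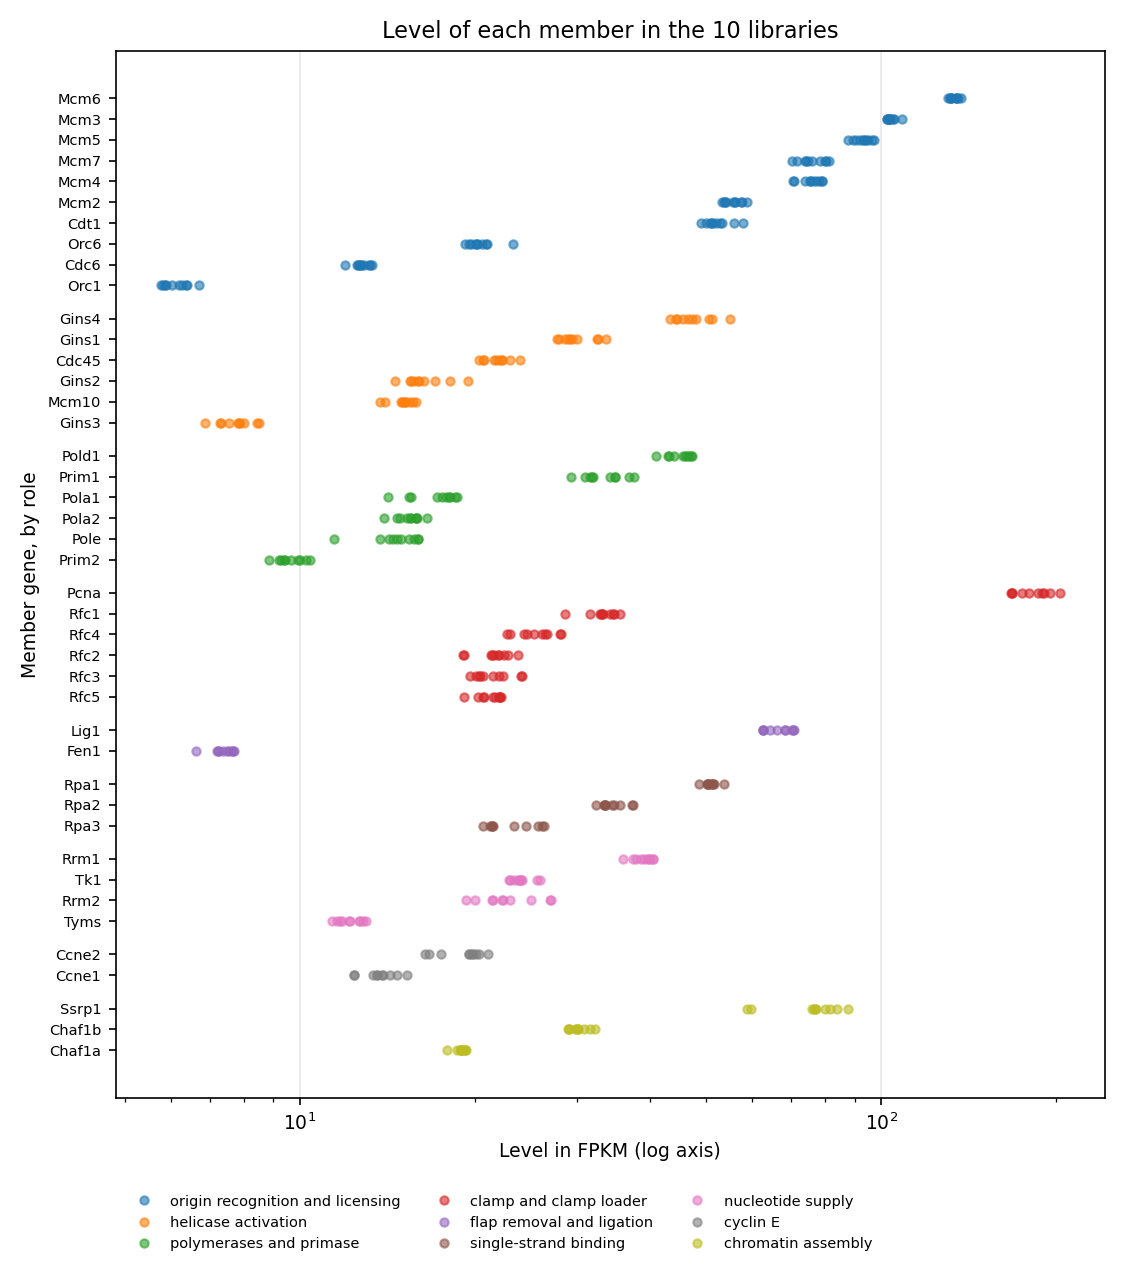
Level of each of the 42 members in FPKM (log axis), 1 point per library, grouped and coloured by role and sorted within a role. The 10 points of a gene lie close together beside the distance between genes, from Orc1 near 6.12 FPKM to Pcna near 182 FPKM.

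Differences between the 4 groups were small, and few members had wide ones. The gap between a member's highest and lowest group mean had a median of 0.15 on the log2 scale. Over the 7985 genes whose mean was at least that of the lowest member, 17.9 CPM, it was close, at 0.16. Over all 15767 tested genes it was 0.23. A gap under 0.25 was found in 53.5% of all tested genes, in 79.6% of those 7985 genes and in 40 of 42 members (95.2%). The 2 exceptions were Rrm2, with a gap of 0.42, and Ssrp1, with a gap of 0.48. The mutated control had the lowest of the 4 means in 21 of 42 members (28.4% of all genes) and the sponge group had the highest in 21 of 42 (20.2% of all genes). In bulk RNA, fewer cells in S phase and less RNA per such cell cannot be told apart.

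**Figure D2:**
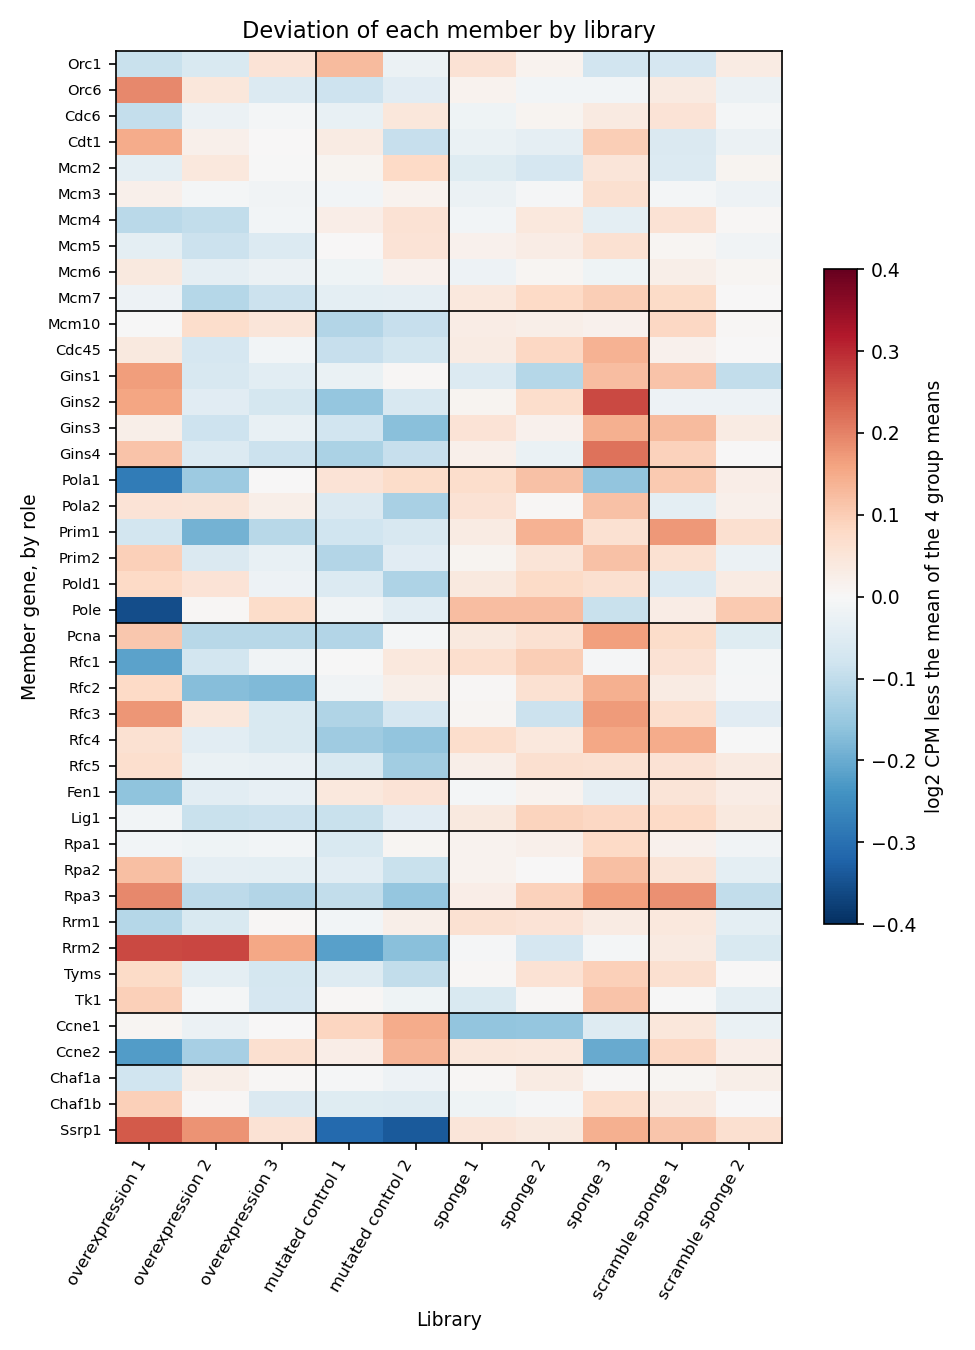
Log2 CPM of each member in each of the 10 libraries, less the mean of its 4 group means, with members by role down the page and groups set apart by vertical lines. Rrm2 is above its mean in the 3 overexpression libraries and Ssrp1 is below its mean in both mutated control libraries, while overexpression replicate 1 and sponge replicate 3 each deviate over many genes at once.

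Rrm2 and Ssrp1 were the members called higher in overexpression libraries than in mutated control libraries. For Ssrp1 the overexpression libraries overlapped the sponge and scramble libraries, and the mutated control libraries lay below all of these. Rrm2 encodes the small, cell cycle regulated subunit of ribonucleotide reductase, and Ssrp1 encodes a subunit of FACT, the chaperone that moves histones out of the way of polymerases. These 2 of 42 members (4.76%) were called higher and 0 were called lower at an adjusted p under 0.05 (edgeR quasi-likelihood test, Benjamini-Hochberg over 15767 genes), against 0.539% of all genes tested called in either direction, 0.247% higher and 0.292% lower. At an unadjusted p under 0.05 the count was 4 of 42 members, all higher (Ssrp1, Rrm2, Mcm10 and Pola2), or 9.52%, against 18.2% of all genes. The median log2 fold change was 0.02 over the members and -0.01 over all genes, and 24 of 42 members were above 0, against 48.8% of all genes. The groups did not overlap in 11 members that were higher with overexpression and 6 that were lower, where 18.9% of all genes were higher and 19.3% lower in this way. An endothelial marker was called in the same comparison: Kdr stood at 18.4, 17.7 and 20.5 CPM in overexpression libraries and at 27.1 and 24.99 CPM in mutated control libraries (log2 fold change -0.47, SE 0.08, edgeR adjusted p = 0.0352). The 6 endothelial markers summed to 21.3 to 24.3 CPM in overexpression libraries and to 28.8 to 31.1 CPM in mutated control libraries, and most of that sum was Kdr. Without a call, Pecam1 and Stab2 were below 0 (log2 fold changes -0.41 and -0.25) and Cdh5 was above 0 (0.21). The part of these markers in the differences of the members was not tested.

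Rrm2 (chr12:24758240-24764145, plus strand, coordinates as the file states them) stood at 74.6, 74.8 and 69.2 CPM in overexpression libraries, 53.5 and 55.4 CPM in mutated control libraries, 61.9, 59.3 and 61.8 CPM in sponge libraries and 63.7 and 59.6 CPM in scramble libraries. All 3 overexpression libraries lay above the other 7, and both mutated control libraries lay below the other 8. Rrm2 averaged 72.9 ± 3.17 CPM with overexpression (SD, n = 3) and 54.4 ± 1.33 CPM in the mutated control (SD, n = 2), a log2 fold change of 0.42 (SE 0.06, edgeR adjusted p = 0.0241). Against the scramble group the log2 fold change was 0.24 (SE 0.06, edgeR adjusted p = 0.194), and of the mutated control against the scramble group it was -0.18 (SE 0.07, edgeR adjusted p = 0.676). No exon of another gene overlaps Rrm2.

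Ssrp1 (chr2:84867578-84877453, plus strand) stood at 328, 313 and 288 CPM in overexpression libraries, 223 and 219 CPM in mutated control libraries, 286, 284 and 305 CPM in sponge libraries and 298 and 289 CPM in scramble libraries. Here the mutated control libraries stood apart below all 8 others, while the overexpression, sponge and scramble libraries overlapped. The mean was 309.5 ± 20.3 CPM with overexpression (SD, n = 3) and 221 ± 2.64 CPM in the mutated control (SD, n = 2), a log2 fold change of 0.49 (SE 0.07, edgeR adjusted p = 0.0167). Against the scramble group it was 0.08 (SE 0.07, edgeR adjusted p = 0.639), and the mutated control was 0.41 lower than the scramble group on the log2 scale (-0.41, SE 0.07, edgeR adjusted p = 0.143). The larger differences of Ssrp1 were those with the mutated control on 1 side, and these comparisons share control libraries. Exons of P2rx3 on the other strand cover 1.36% of its exon bases.

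Both calls were also made by DESeq2 and by limma-voom, and without overexpression replicate 1 and sponge replicate 3 they gave 0.41 (SE 0.06, edgeR adjusted p = 0.00104) for Rrm2 and 0.45 (SE 0.05, edgeR adjusted p = 0.000228) for Ssrp1, with 4.83% of all genes then called. In a fit of only the 2 groups compared, and without overexpression replicate 2, mutated control replicate 1 or mutated control replicate 2, neither was called, and without sponge replicate 1, scramble replicate 1 or scramble replicate 2 only Ssrp1 was.

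**Figure D3:**
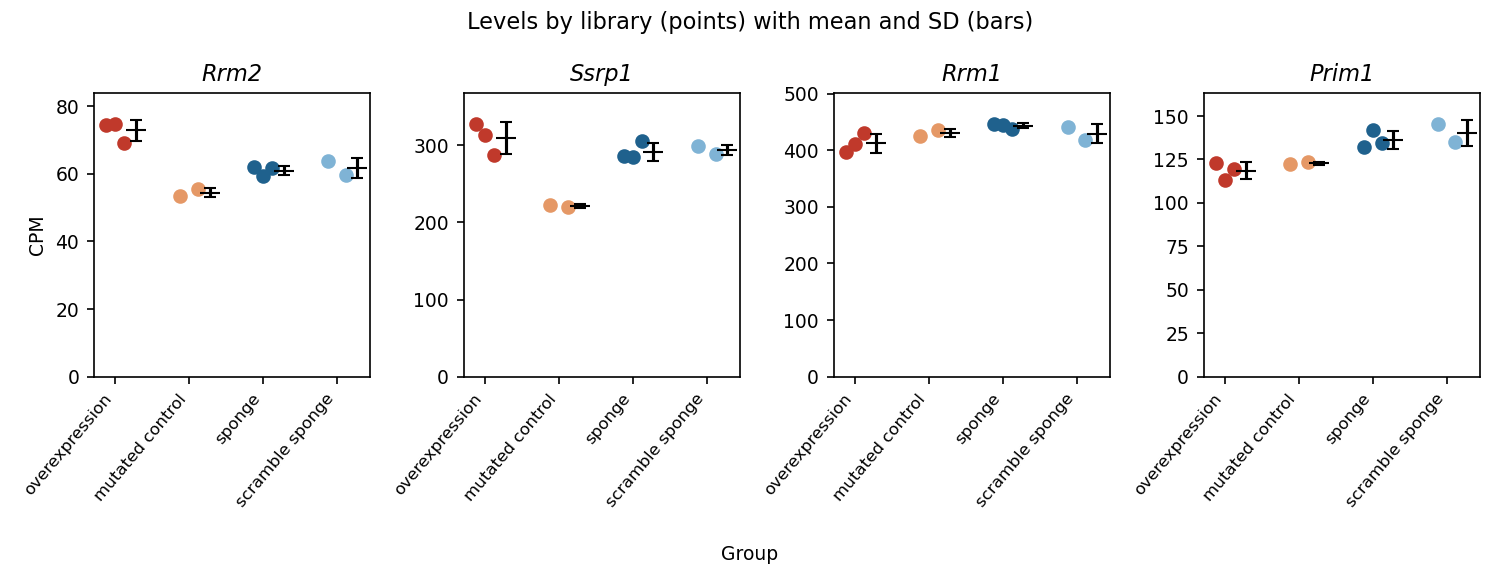
CPM of Rrm2, Ssrp1, Rrm1 and Prim1 in each library (points) with the mean and SD of each group beside them, from 0 on a linear axis. Rrm2 is highest with overexpression (72.9 CPM against 54.4 CPM in the mutated control), Ssrp1 is lowest in the mutated control (221 CPM), overexpression and mutated control libraries of Rrm1 overlap, and Prim1 is lower with overexpression and in the mutated control than in both sponge vector groups.

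The origin licensing genes were not called by edgeR in any of the 6 tests. In overexpression against the mutated control, 0 of 10 were called by edgeR, DESeq2 or limma-voom and 0 had an unadjusted p under 0.05, with log2 fold changes between -0.12 and 0.13. Mcm6, the helicase subunit of highest level, stood at 639.7, 607 and 612 CPM in overexpression libraries, 615 and 629.8 CPM in mutated control libraries, 614, 627 and 616 CPM in sponge libraries and 633 and 626 CPM in scramble libraries. These groups overlapped, and the log2 fold change was -0.01 with a 95% interval between -0.13 and 0.12 for overexpression against the mutated control. Orc1, the initiator subunit made in G1, ranged between 20.1 and 23.3 CPM over the 10 libraries, and Cdc6, which works with it in loading the helicase, between 62.6 and 69.6 CPM. Cdt1 ranged between 153 and 181 CPM, and of the other ring subunits Mcm2 ranged between 369.8 and 409 CPM, Mcm3 between 383 and 408 CPM and Mcm4 between 253 and 284 CPM. Mcm5 stood between 349.5 and 361 CPM in overexpression libraries, below the other 7 libraries at 367 to 388 CPM. Mcm7 stood between 311 and 332 CPM in the 5 overexpression and mutated control libraries, below the 5 sponge and scramble libraries at 337 to 360.3 CPM. Orc6, a subunit of the origin recognition complex, ranged between 47.4 and 57.4 CPM and was highest in overexpression replicate 1.

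Of the 6 genes of helicase activation, all 6 were above 0 in overexpression against the mutated control, with a median log2 fold change of 0.10, and 0 were called by edgeR. When overexpression replicate 1 and sponge replicate 3 were left out, 5 of the 6 were above 0 with a median of 0.05, and Gins1 was at -0.04. Mcm10, which helps the loaded helicase to start, stood at 115, 120.4 and 119 CPM in overexpression libraries, 106 and 108 CPM in mutated control libraries, 117, 117 and 116 CPM in sponge libraries and 122 and 115 CPM in scramble libraries. Its mutated control libraries lay below all 8 others, and the log2 fold change of overexpression against them was 0.14 (SE 0.06, edgeR adjusted p = 0.224). Cdc45 stood at 78.2, 72.7 and 75.6 CPM in overexpression libraries, 71.3 and 72.4 CPM in mutated control libraries, 77.9, 80.6 and 83.9 CPM in sponge libraries and 77.1 and 76.1 CPM in scramble libraries. The sponge libraries of Cdc45 lay above the scramble libraries with a log2 fold change of 0.08 (SE 0.06, edgeR adjusted p = 1).

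The GINS genes varied more between libraries of a group. Gins2 stood at 74.2, 64.3 and 63.2 CPM in overexpression libraries, 59.8 and 63.6 CPM in mutated control libraries, 66.9, 69.8 and 79.7 CPM in sponge libraries and 65.6 and 65.5 CPM in scramble libraries. Gins4 stood at 69.0, 61.4 and 60.1 CPM in overexpression libraries, 58.5 and 59.8 CPM in mutated control libraries, 64.8, 62.6 and 74.2 CPM in sponge libraries and 68.1 and 63.8 CPM in scramble libraries. In both genes overexpression replicate 1 and sponge replicate 3 were the highest libraries of all, and Gins1 ranged between 41.9 and 50.9 CPM. Gins3 stood at 21.3, 19.7 and 20.5 CPM in overexpression libraries, 19.8 and 18.6 CPM in mutated control libraries, 21.7, 21.2 and 23.1 CPM in sponge libraries and 22.8 and 21.4 CPM in scramble libraries, and the mutated control lay below the scramble libraries (log2 fold change -0.20, SE 0.08, edgeR adjusted p = 0.692).

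Among the polymerase and primase genes edgeR called 0 of 6 in any of the 6 tests with all 10 libraries, while DESeq2 called Prim1 in overexpression against scramble and in the test of any difference. Prim1, the catalytic primase subunit, stood at 123, 113 and 119.6 CPM in overexpression libraries, 122 and 124 CPM in mutated control libraries, 132, 142 and 135 CPM in sponge libraries and 146 and 135 CPM in scramble libraries. All 5 libraries of the overexpression and mutated control vectors lay below all 5 libraries of the sponge and scramble vectors, so that the log2 fold change was -0.24 for overexpression against scramble (SE 0.06, edgeR adjusted p = 0.194) but -0.05 for overexpression against the mutated control (SE 0.06, edgeR adjusted p = 0.669). The mutated control was at -0.19 against scramble (SE 0.07, edgeR adjusted p = 0.647). Without overexpression replicate 1 and sponge replicate 3, Prim1 was called lower with overexpression than with the scramble sponge (log2 fold change -0.26, edgeR adjusted p = 0.0229) and Rrm2 higher (0.23, edgeR adjusted p = 0.0481), where 2.4% of all genes were called.

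Pold1, the catalytic subunit of polymerase delta, stood at 229.6, 225 and 214 CPM in overexpression libraries, 209 and 199 CPM in mutated control libraries, 223, 229 and 227 CPM in sponge libraries and 209 and 222 CPM in scramble libraries. Pola2, the accessory subunit of polymerase alpha, stood at 131, 131 and 129 CPM in overexpression libraries, 122 and 116 CPM in mutated control libraries, 132, 127 and 137 CPM in sponge libraries and 123 and 128 CPM in scramble libraries. In both genes the overexpression libraries lay above the mutated control libraries without a call, with log2 fold changes of 0.13 for Pold1 (SE 0.06, edgeR adjusted p = 0.284) and 0.14 for Pola2 (SE 0.06, edgeR adjusted p = 0.261). Pole, the catalytic subunit of polymerase epsilon, stood at 128, 164 and 172 CPM in overexpression libraries, 162 and 159 CPM in mutated control libraries, 178, 178 and 153 CPM in sponge libraries and 167 and 176 CPM in scramble libraries. Its 2 lowest libraries were overexpression replicate 1 and sponge replicate 3, and the same 2 libraries were lowest in their groups for Pola1, the catalytic subunit of polymerase alpha, at 125 and 136 CPM. Prim2, the regulatory primase subunit, ranged between 52.5 and 61.7 CPM.

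With all 10 libraries edgeR called no gene of the clamp, its loader, flap removal, ligation or single-strand binding in any of the 6 tests. With overexpression replicate 1 and sponge replicate 3 left out it called Rfc2 in the test of any difference among the 4 groups. Rfc2 was then at -0.17 in overexpression against the mutated control (SE 0.05, edgeR adjusted p = 0.0505), against -0.09 with all libraries. Exons of Lat2 on the other strand cover 15.1% of the Rfc2 exon bases. Pcna stood at 468, 402 and 402 CPM in overexpression libraries, 401 and 431 CPM in mutated control libraries, 446, 453 and 487 CPM in sponge libraries and 457 and 419.6 CPM in scramble libraries, with overlap between overexpression and mutated control libraries and a log2 fold change of 0.03 (95% interval between -0.15 and 0.21) for overexpression against the mutated control, or -0.04 (SE 0.06) without overexpression replicate 1 and sponge replicate 3. Rfc4, a subunit of the clamp loader, stood at 40.5, 37.7 and 37.2 CPM in overexpression libraries, 35.2 and 34.8 CPM in mutated control libraries, 40.7, 40.0 and 43.2 CPM in sponge libraries and 43.0 and 38.8 CPM in scramble libraries. The mutated control was below all 8 other libraries in Rfc4, at -0.22 against scramble (SE 0.08, edgeR adjusted p = 0.615), with exons of Eif4a2 over 12.7% of its exon bases. Lig1, which seals nicks between lagging strand fragments, stood at 279, 264 and 265 CPM in overexpression libraries, 264 and 272 CPM in mutated control libraries, 289, 299 and 298 CPM in sponge libraries and 297 and 289 CPM in scramble libraries. As in Prim1, all 5 libraries of the overexpression and mutated control vectors lay below all 5 of the sponge and scramble vectors, at -0.12 for overexpression against scramble (SE 0.06, edgeR adjusted p = 0.382). Rpa1, the large subunit of the single-strand binding protein RPA, stood at 281, 279.5 and 281 CPM in overexpression libraries, 271 and 284 CPM in mutated control libraries, 286, 287 and 299 CPM in sponge libraries and 286 and 280.4 CPM in scramble libraries, with overlapping overexpression, mutated control and scramble groups. The other loader subunits ranged over the 10 libraries between 172 and 214 CPM for Rfc1, 120.1 and 149.7 CPM for Rfc2, 70.7 and 87.0 CPM for Rfc3 and 89.5 and 103 CPM for Rfc5. The flap nuclease Fen1 ranged between 16.1 and 18.7 CPM, and the smaller RPA subunits Rpa2 and Rpa3 between 96.6 and 112 CPM and between 23.4 and 29.8 CPM. Rfc5 and Rpa2, the members with a miR-342-3p seed match, had log2 fold changes of 0.11 and 0.08 in overexpression against the mutated control and of 0.00 and 0.04 in sponge against scramble, and edgeR called neither. The values against the mutated control were 0.08 for Rfc5 and 0.03 for Rpa2 without overexpression replicate 1 and sponge replicate 3.

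Rrm2 was the only 1 of the 4 nucleotide supply genes that edgeR called in any of the 6 tests with all 10 libraries. Rrm1, its partner subunit, stood at 396, 411 and 430.1 CPM in overexpression libraries, 425 and 435 CPM in mutated control libraries, 447, 445 and 438 CPM in sponge libraries and 441 and 418 CPM in scramble libraries. The overexpression and mutated control groups of Rrm1 overlapped, and the log2 fold change between them was -0.06 with a 95% interval between -0.19 and 0.07, while that of Rrm2 had an interval between 0.28 and 0.56. Tyms, thymidylate synthase, ranged between 69.1 and 79.0 CPM over the 10 libraries and Tk1, thymidine kinase of the salvage route, between 119 and 135 CPM. Neither Tyms (0.07, SE 0.06, edgeR adjusted p = 0.577) nor Tk1 (0.02, SE 0.07, edgeR adjusted p = 0.918) was called in overexpression against the mutated control.

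Cyclin E activates CDK2 at the entry into S phase, and both of its genes were below 0 in overexpression against the mutated control. Ccne1 stood at 37.0, 36.2 and 36.8 CPM in overexpression libraries, 39.0 and 40.7 CPM in mutated control libraries, 33.0, 33.0 and 35.5 CPM in sponge libraries and 38.0 and 36.1 CPM in scramble libraries. Its mutated control libraries were the highest of all 10 and its sponge libraries the lowest. The log2 fold change was -0.12 for overexpression against the mutated control (SE 0.06, edgeR adjusted p = 0.322) and -0.13 for sponge against scramble (SE 0.06, edgeR adjusted p = 1). Ccne2 stood at 57.4, 61.2 and 70.1 CPM in overexpression libraries, 68.4 and 73.7 CPM in mutated control libraries, 69.2, 69.1 and 58.4 CPM in sponge libraries and 71.0 and 68.3 CPM in scramble libraries, with overlapping groups. Of the chromatin assembly genes other than Ssrp1, the CAF-1 subunits Chaf1a and Chaf1b ranged between 158 and 171 CPM and between 135 and 150.4 CPM over the 10 libraries.

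Cells with the sponge and cells with the scramble sponge had close levels of these genes. None of the 42 was called by edgeR, DESeq2 or limma-voom, and 0 had an unadjusted p under 0.05 with edgeR, against 2.33% of all genes at that unadjusted p and 0% called. Log2 fold changes ran between -0.13 (Ccne1) and 0.14 (Gins2), with a median of 0.01 over the members and 0.00 over all genes. In 41 of 42 members the 95% interval of the difference lay within 1.25-fold in both directions, and the exception was Gins2 with an upper bound of 0.34 on the log2 scale. The groups did not overlap in 6 members, 4 higher with the sponge (Mcm5, Cdc45, Gins2 and Pold1) and 2 lower (Fen1 and Ccne1), against 15.2% of all genes. Without overexpression replicate 1 and sponge replicate 3, 0 members and 0 of all genes were called, Gins2 was at 0.06 and Ccne1 at -0.16, and Ccne1 was the 1 member with an unadjusted p under 0.05 (edgeR adjusted p = 0.677). The test of whether the overexpression effect differed from the sponge effect called 0 members and 0 of all genes with edgeR (8.06% of all genes and 2 members had an unadjusted p under 0.05), and DESeq2 called Rrm2 and Ssrp1. That difference was 0.44 for Rrm2 (SE 0.09, edgeR adjusted p = 0.273) and 0.49 for Ssrp1 (SE 0.10, edgeR adjusted p = 0.245), and without overexpression replicate 1 and sponge replicate 3 both were called (0.43, edgeR adjusted p = 0.0161, and 0.49, edgeR adjusted p = 0.00508), with 1.73% of all genes called.

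**Figure D4:**
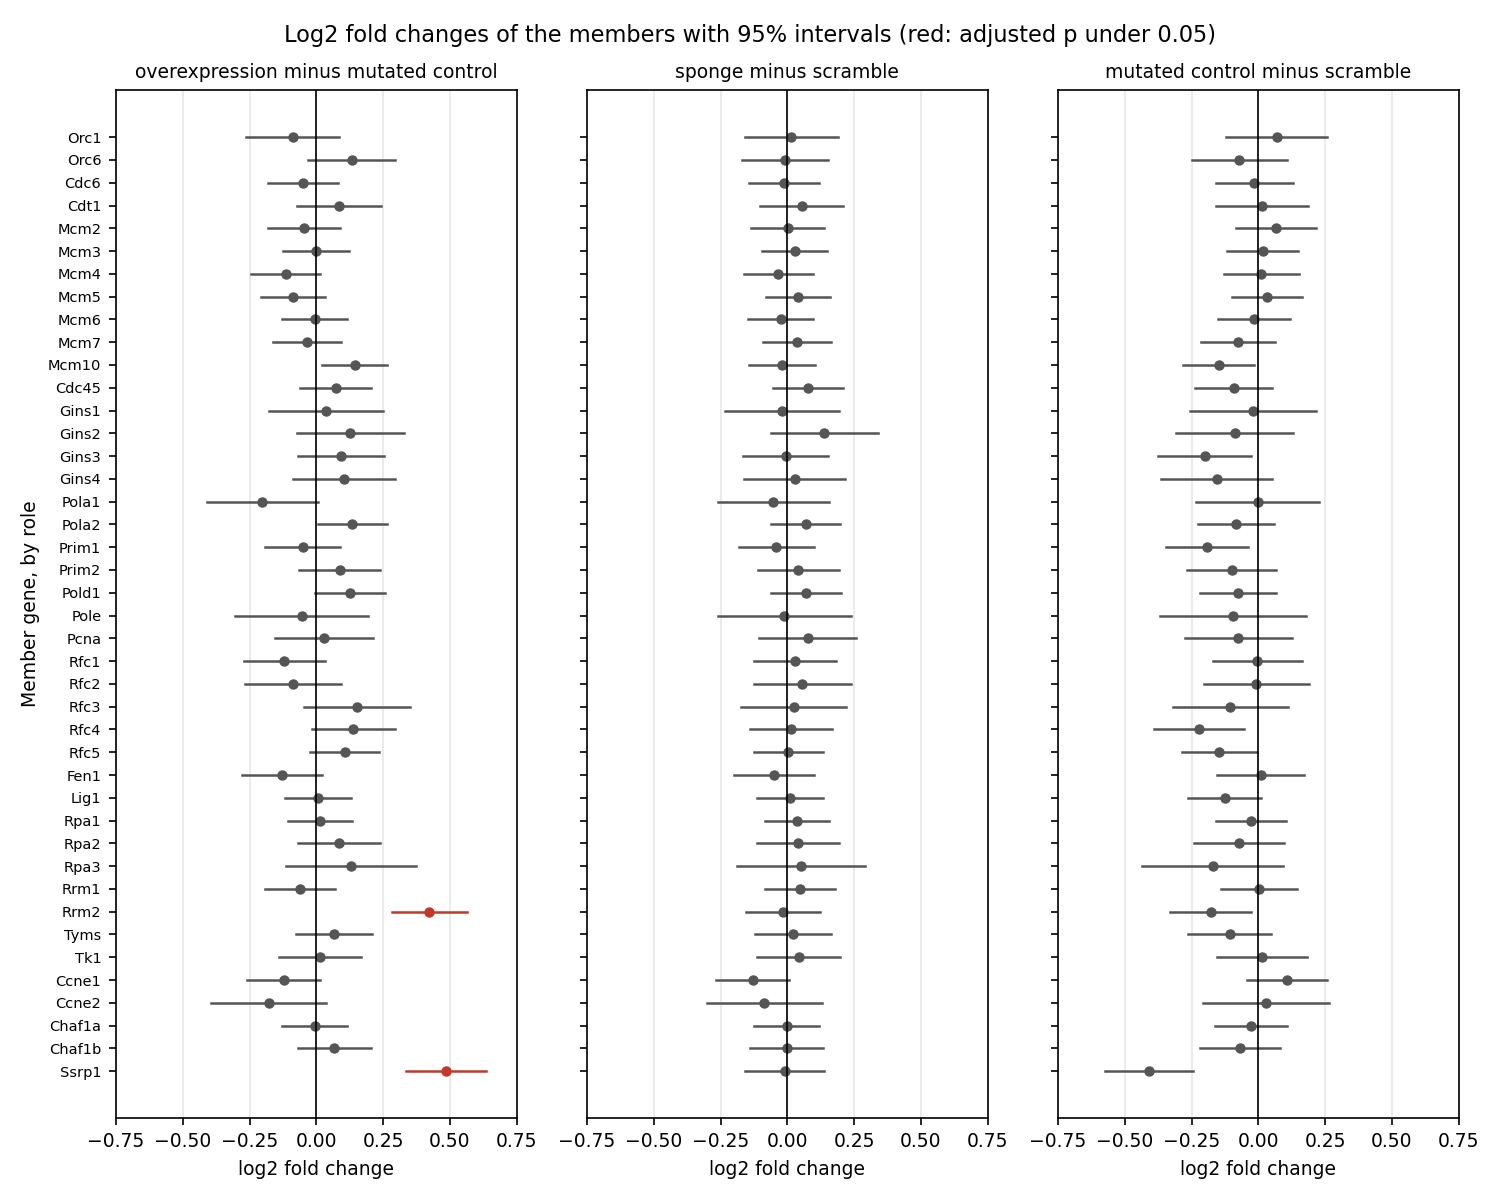
Log2 fold change of each member with its 95% interval in overexpression against the mutated control, sponge against scramble, and mutated control against scramble, with edgeR adjusted p under 0.05 in red. Rrm2 and Ssrp1 are the red points of the first panel, and in the third panel 31 of 42 points lie below 0.

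More members were lower than higher in the mutated control when it was set against the other control vector. In the mutated control against the scramble sponge, 31 of 42 members lay below 0, while 50.5% of all genes lay above 0 and 26.2% of the members did. The median log2 fold change was -0.07 over the members and 0.00 over all genes. The median deviation of the members was -0.05 and -0.04 in mutated control libraries and 0.05 and 0.00 in scramble libraries, so the 2 scramble libraries differed from each other about as much as the second of them differed from the mutated control. These genes come from the same 4 libraries, so their directions are not separate observations. Groups did not overlap in 23 members, 21 lower and 2 higher (Mcm2 and Ccne1), where 24.2% of all genes were lower and 24.1% higher in this way. By edgeR 0 members were called against 0.0254% of all genes, limma-voom called 0 and DESeq2 called 1, Ssrp1. At an unadjusted p under 0.05 the edgeR count was 7 members, all lower (Ssrp1, Rfc4, Prim1, Rrm2, Gins3, Mcm10 and Rfc5), or 16.7% against 6.47% of all genes. Without overexpression replicate 1 and sponge replicate 3, Ssrp1 was called lower (-0.41, edgeR adjusted p = 0.000797), where 1.73% of all genes were called. Here too the sum of the 6 endothelial markers was higher in the mutated control, at 28.8 to 31.1 CPM against 23.1 to 25.1 CPM in scramble libraries. That sum was mostly Kdr, at 27.1 and 24.99 CPM in mutated control libraries and 19.0 and 20.7 CPM in scramble libraries. Pecam1, Cdh5 and Stab2 went the other way without a call, with log2 fold changes of -0.48, -0.12 and -0.13. The part of these markers in the differences of the members was not tested.

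By role, all 6 helicase activation genes, all 6 polymerase and primase genes, all 6 clamp and clamp loader genes and all 3 RPA genes were below 0 in the mutated control against scramble, with medians of -0.12, -0.09, -0.09 and -0.07 on the log2 scale. Of the 10 licensing genes, 6 were above 0, and their median was 0.01. Between the same 2 groups, scramble replicate 1 stood apart by gene length, while scramble replicate 2 was like the mutated control libraries. Over the members, the change in deviation per doubling of gene length was 0.023 and 0.026 in mutated control libraries. It was -0.031 in scramble replicate 1 and 0.023 in scramble replicate 2. The 10 shortest members had median deviations of -0.09 and -0.07 in mutated control libraries and of 0.08 and -0.03 in scramble libraries. For the 10 longest members these were -0.01 and 0.00, and 0.04 and 0.01. The part of gene length in the directions by role was not tested. Across overexpression and scramble, whose vectors also differ in type, 0 members were called by edgeR against 0.0444% of all genes, DESeq2 called Prim1 and Rrm2, and 2 members had an unadjusted p under 0.05, against 13.4% of all genes. In the test for any difference among the 4 groups edgeR called Ssrp1 (adjusted p = 0.0443) against 0.419% of all genes, and Rrm2 had an adjusted p of 0.0529 with edgeR. Without overexpression replicate 1 and sponge replicate 3 this test called 5 members (Ccne1, Prim1, Rfc2, Rrm2 and Ssrp1), where 8.99% of all genes were called.

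Overexpression replicate 1 and sponge replicate 3 stood apart in the short members, and the overexpression one also in the long members. The 10 shortest members had a median deviation of 0.11 log2 in overexpression replicate 1 and of 0.13 in sponge replicate 3, against -0.05 in each other overexpression library and 0.02 and 0.00 in the other sponge libraries. The 10 longest members had a median deviation of -0.06 in overexpression replicate 1 and of 0.03 in sponge replicate 3, against -0.02 and 0.00 in the other overexpression libraries and 0.04 and 0.06 in the other sponge libraries. Scramble replicate 1 also stood at 0.08 for the shortest members. Without both libraries the log2 fold changes in overexpression against the mutated control were 0.41 for Rrm2 and 0.45 for Ssrp1, against 0.42 and 0.49 with them.

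**Figure D5:**
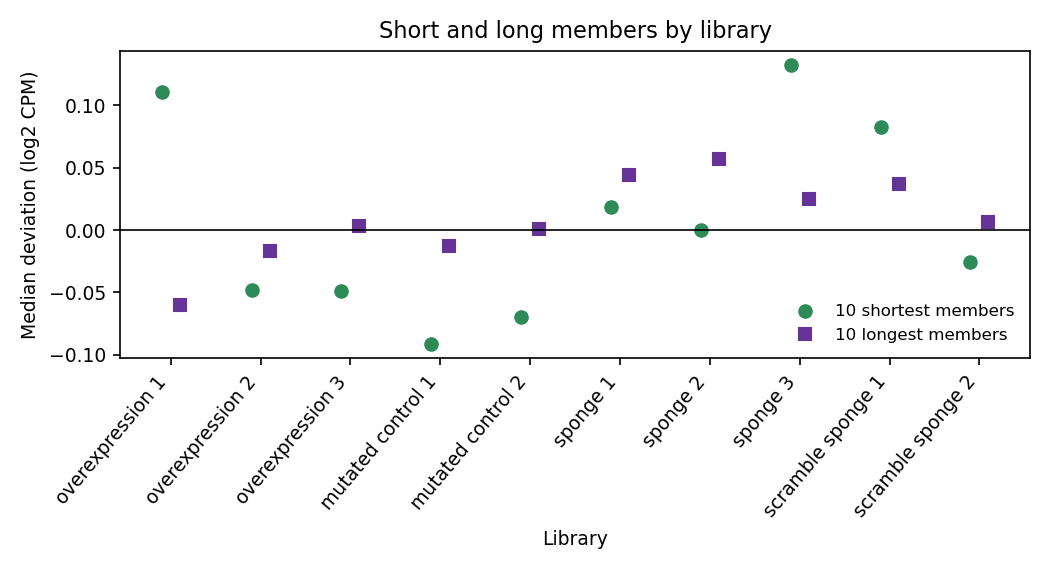
Median deviation in log2 CPM of the 10 shortest members (circles) and the 10 longest members (squares) in each library, from the mean of the 4 group means. The short members stand highest in sponge replicate 3 (0.13) and overexpression replicate 1 (0.11).

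The genes outside all lists whose level over the 10 libraries was most like the mean of the members were Paip2 (Pearson's r = 0.98), Cnpy4 (0.98), Ywhaq (0.97), Tmem50a (0.97) and 0610009B22Rik (0.97). These values are descriptions over libraries that share the same deviations of single libraries.

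Of 45 further replication genes, 0 were called by edgeR in overexpression against the mutated control with all 10 libraries, 4 had an unadjusted p under 0.05, and the median log2 fold change was 0.00. Leaving out overexpression replicate 1 and sponge replicate 3, 2 were called higher and 1 lower, with a median of -0.02, where 4.83% of all genes were called. With all libraries, those of smallest p were Chtf18 of the alternative clamp loader (0.26, SE 0.07, edgeR adjusted p = 0.127), the flap nuclease Dna2 (-0.33, SE 0.12, edgeR adjusted p = 0.21) and Dbf4, the activator of the CDC7 kinase (0.15, SE 0.06, edgeR adjusted p = 0.248). Of 35 further nucleotide synthesis genes 0 were called, but 30 were above 0 with a median of 0.11, and 10 had an unadjusted p under 0.05, all higher, or 28.6% against 18.2% of all genes. Without both libraries 1 was called, higher, and the median was 0.10. With all libraries, the folate enzyme Mthfd2 stood at 187, 186 and 151 CPM in overexpression libraries, 101 and 101 CPM in mutated control libraries, 130.0, 94.5 and 163 CPM in sponge libraries and 126 and 133 CPM in scramble libraries. Overexpression and mutated control libraries of Mthfd2 did not overlap (0.79, SE 0.18, edgeR adjusted p = 0.0809), while the sponge libraries spread across the range of both. Nme2, a nucleoside diphosphate kinase (0.77, SE 0.17, edgeR adjusted p = 0.0775), and Dctd, dCMP deaminase (0.45, SE 0.14, edgeR adjusted p = 0.148), were the other 2 of smallest p with all libraries.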

How the data were processed

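Per the file headers, the authors counted read pairs per gene with featureCounts 2.0.1 against GENCODE vM30, with both ends mapped, no chimeric pairs, a minimum overlap of 10 bases and strand setting 0. The deposited values are whole-number counts without normalization. The submitters' processing notes list STAR 2.7.6a, Subread, Trimmomatic and FastQC 0.11.6 with the build GRCm38, but gene coordinates of the deposited file differ from GRCm38 and are printed as the file states them. The start in the file, less that in GRCm38, was 49986 bases for Rrm2 and -169542 bases for Ssrp1. Gene coordinates are therefore not on the build of the promoter intervals, which are GRCm38.p6. The counting command names 12 libraries, and 10 are analysed here.

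In the deposited lines, 15 fields stand under 16 column names because sponge replicate 3 and a scramble library share 1 field. Every such number was cut where a negative binomial model (dispersion 0.1, from each gene's share of reads in the other libraries) gave the highest likelihood, and genes whose best cut was under 100 times as likely as the next best were dropped. This left out 51 of 55866 genes and none of the members, whose smallest log10 ratio was 7.13. In a trial on 7 artificially joined pairs of the other libraries, at least 99.9928% of the genes kept by this rule were cut correctly. At most 4 kept genes of mean count 10 or more were wrong, and between 33 and 188 genes per pair were dropped. The replicate numbers of the 2 scramble libraries follow the order of the header, and their group does not depend on it.

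The main test was edgeR 4.0.16 (quasi-likelihood, robust, TMM, expression filter by group) in R 4.3.3, in 1 fit of 10 libraries with 6 residual degrees of freedom. Benjamini-Hochberg adjustment ran over 15767 genes, with a threshold of 0.05. Alternatives were DESeq2 1.42.0, limma-voom (limma 3.58.1), other size factors, no filter on low counts, a stricter split, only the groups compared, blocks by replicate number, and each library left out. Leaving out overexpression replicate 1 and sponge replicate 3 together was chosen after seeing the data. The edgeR step was also run on simulated counts, with the same dispersion for every gene and no libraries that deviate by gene length. The planted differences were larger than those of Rrm2 and Ssrp1, so that run does not speak to these calls. Intervals are 95% intervals of the fit. All members were named in the text; values in every library were given for those called, for the 5 of smallest p in each of 3 comparisons and for the member of highest level in each role, and for Pole because of its deviations, chosen after its values were seen. The members and all gene lists were chosen with earlier results of these data known. Same-numbered overexpression and sponge libraries did not deviate together (correlations -0.27, -0.00 and -0.39), so numbers were not taken to pair libraries. Overexpression replicate 1 and sponge replicate 3, of different numbers, did deviate together (correlation 0.44), and the same-numbered values cannot exclude a pairing.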

Additional observations from a re-analysis of the deposited data

How the results depend on the processing

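The members called in overexpression against the mutated control were 2 with DESeq2 and limma-voom, but 0 with only the groups compared. A replicate block, by the number in the title or in the library name, also gave 0 there and 0 (against 1) in the test of any difference among the 4 groups. Whether these numbers pair the libraries is not known. Mutated control against scramble gave 1 with DESeq2, 1 with no filter on low counts, 3 with only the groups compared and 1 without overexpression replicate 1 and sponge replicate 3 together. Overexpression against scramble gave 2 with DESeq2 and 2 without both libraries. The difference of the vector effects gave 2 with DESeq2, 2 with no filter and 2 without both libraries. Any difference among the groups gave 3 with DESeq2, 2 with no filter and 5 without both libraries (Ccne1, Prim1, Rfc2, Rrm2 and Ssrp1). With 1 library left out in turn, counts ran between 0 and 2 for overexpression against the mutated control, 0 and 1 for mutated control against scramble, and 0 and 2 for any difference; the fits that leave 1 library in a group assume that it varies like the others. Sponge against scramble stayed at 0 in every alternative run. Of the log2 fold changes of named members under the alternatives, 263 kept their side of the threshold, 15 lost a call, 7 gained one and 0 changed direction as a call. Only the values of Rrm2 and Ssrp1 in overexpression against the mutated control were called in the main fit, so all 15 lost calls fell on these 2. Most of the 263 belong to values without a call in the main fit and do not speak to how stable the 2 calls are. The causes were not tested.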

Other observations

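Mitotic genes are described here beside the replication genes. Of 27 tested mitotic genes, edgeR called 2 as higher in overexpression libraries than in mutated control libraries, against 0.247% of all genes, 24 were above 0 and the median log2 fold change was 0.15. Without overexpression replicate 1 and sponge replicate 3, 12 were called, all higher, where 4.83% of all genes were called, 26 were above 0 and the median was 0.19. Aurkb, the kinase of the chromosomal passenger complex, stood at 95.2, 87.4 and 93.8 CPM in overexpression libraries, 68.6 and 64.1 CPM in mutated control libraries, 97.98, 102 and 101 CPM in sponge libraries and 92.3 and 85.0 CPM in scramble libraries (0.47, SE 0.07, edgeR adjusted p = 0.0167). As with Ssrp1, the mutated control libraries of Aurkb lay below all 8 others. Ube2c, the ubiquitin-conjugating enzyme of the anaphase-promoting complex, stood at 83.4, 75.6 and 68.3 CPM in overexpression libraries, 52.5 and 50.03 CPM in mutated control libraries, 63.8, 61.8 and 72.8 CPM in sponge libraries and 63.1 and 56.0 CPM in scramble libraries (0.57, SE 0.10, edgeR adjusted p = 0.0429). In the mutated control against scramble 0 of the 27 were above 0, with a median of -0.10 and none called by edgeR (2 lower without both libraries), and in the sponge against scramble 27 of 27 were above 0, with a median of 0.08 and none called. The 27 genes come from the same libraries, so their directions are not separate observations.

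Of 29 regulators of G1 and cell cycle brakes, edgeR called 1, E2f5, as higher in overexpression libraries than in mutated control libraries, against 0.539% of all genes called in either direction. E2f5, a transcription factor that works with pocket proteins, stood at 10.03, 9.43 and 8.99 CPM in overexpression libraries, 6.28 and 6.31 CPM in mutated control libraries, 7.56, 7.11 and 6.77 CPM in sponge libraries and 7.55 and 7.29 CPM in scramble libraries (0.60, SE 0.09, edgeR adjusted p = 0.0241). In the test of any difference among the 4 groups E2f5, Ccnd1 and Ccnd2, 3 of the 29, were called, against 0.419% of all genes (edgeR adjusted p = 0.0456, 0.0208 and 0.0378), and 7 of the 29 were called without overexpression replicate 1 and sponge replicate 3, against 8.99% of all genes. Ccnd1, cyclin D1, stood at 79.5, 99.9 and 71.3 CPM in overexpression libraries, 20.4 and 37.3 CPM in mutated control libraries, 14.8, 7.56 and 21.4 CPM in sponge libraries and 16.2 and 22.8 CPM in scramble libraries, and its overexpression libraries lay above all others. Ccnd2, cyclin D2, stood at 24.5, 27.0 and 20.0 CPM in overexpression libraries, 10.8 and 19.7 CPM in mutated control libraries, 6.34, 4.47 and 8.41 CPM in sponge libraries and 8.92 and 12.5 CPM in scramble libraries. In overexpression against the mutated control neither was called (Ccnd1 1.54, SE 0.36, edgeR adjusted p = 0.0916; Ccnd2 0.66, SE 0.27, edgeR adjusted p = 0.248).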
